A study of Rattus norvegicus with 6 samples.

Results

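The smooth muscle type contractile genes were examined in rat atrial fibroblasts after transfection with siRNA against GPD1L. The set holds 10 genes, listed by name for their known roles and found by symbol among the 40154 genes of the deposited count table. They are the actin genes Acta2 and Actg2, the myosin genes Myh11 and Myl9, the tropomyosin genes Tpm1 and Tpm2, the actin-binding genes Tagln, Cnn1 and Lmod1, and the regulator Myocd. mRNA sequencing of polyA RNA was performed on 3 libraries of fibroblasts given the control siRNA (si-NC) and 3 given siRNA against GPD1L (si-GPD1L). In both groups the cells came from the hearts of Sprague-Dawley rats aged 1 to 3 days, were separated from atrial myocytes by 1.5 h of preplating, were grown in 10% serum and were taken 24 h after transfection. All 6 libraries carry the same treatment label, Atrial differentiation, and hearts were minced and digested together, with no statement of how many animals or cultures stand behind a library. Whether the digit ending each si-GPD1L name numbers replicates or different siRNAs is not stated either, and it was read as a replicate number. The p-values below therefore measure the spread between these libraries, which may be technical.

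In a smooth muscle cell or a myofibroblast, alpha-smooth muscle actin filaments slide against myosin once the regulatory light chain of myosin is phosphorylated, and tropomyosin and calponin lie along the filament and tune this cycle. The genes of this apparatus are switched on together by serum response factor (SRF), which binds CArG boxes in their control regions with myocardin or the related MRTF proteins as coactivators. In the heart, the appearance of alpha-smooth muscle actin is the usual mark of a fibroblast that has become a contractile, matrix-producing myofibroblast. The study measured it by Western blot, PCR and immunofluorescence. It also compared fibrotic proteins and mRNAs between si-NC and si-GPD1L, and reported that silencing of GPD1L promoted activation of atrial fibroblasts. The study showed silencing of GPD1L by siRNAs in these cells. It also reported lower fibrotic proteins and mRNAs when a PI3K inhibitor was added to si-GPD1L.

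A CArG box is a run of 10 bases, CC followed by 6 bases that are A or T and then GG, and reads the same on both strands. RefSeq promoters (build GRCr8, 250 bases before to 50 bases after the annotated start) were matched for 5 of the 10 genes, namely Acta2, Cnn1, Tpm1, Tpm2 and Actg2. No exact box was found in these 5 windows, and 1.64% of all 33469 promoters hold one. With 1 of the 6 central bases allowed to be C or G, Acta2 held 2 matches and the other 4 genes none, while 9.42% of all promoters hold at least 1 such match and 0.846% at least 2. Both Acta2 matches are shown because they are the letters nearest to the CArG box in the set, with the 10 bases of the match in capitals and 10 bases on each side.
Acta2, 134 bases before the start (chr1:241172618-241172647, minus strand): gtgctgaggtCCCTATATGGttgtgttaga
Acta2, 84 bases before the start (chr1:241172568-241172597, minus strand): tgtctttgctCCTTGTTTGGgaagcgagtg
A match is a description of the letters and not a measured binding site.

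The library totals ran from 16892255 to 20149732 counts. Between replicates of a group, the chi-square per degree of freedom of the counts was 3.89 to 27.4, above the value near 1 of sampling noise, and each library was kept as a replicate. The targeted gene was looked at first. Gpd1l, in normalized counts (counts scaled to the mean library size), was at 262, 332 and 313 in si-NC replicates 1, 2 and 3 and at 220, 208 and 302 in those labelled si-GPD1L 1, 2 and 3. The library labelled si-GPD1L 3 lay inside the si-NC range, and Gpd1l did not pass the test (log2 fold change -0.31, standard error (SE) 0.15, with edgeR's quasi-likelihood test giving an adjusted p = 0.234). Without the library labelled si-GPD1L 3 its log2 fold change was -0.50 (adjusted p = 0.0733), and without si-GPD1L 2 it was -0.21 (adjusted p = 0.579), in edgeR's quasi-likelihood test. Among the si-NC libraries, replicate 1 stood apart by a share of mitochondrial counts of 3.61%, against 2.47% and 2.54% in the other two and 2.17% to 2.28% in the libraries labelled si-GPD1L.

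The fibroblast label was checked against defining markers. All 11 fibroblast markers were detected, with Col1a1 and Col3a1, the main fibrillar collagen genes, as the most abundant. Cardiomyocyte markers were present as well, all 12 of 12, and their summed level was 3134 to 3317 TPM (counts per gene length, scaled to a common sum per library) in si-NC and 2941 to 3112 in the libraries labelled si-GPD1L. Tnnt2, which encodes cardiac troponin T and had the highest mean count among them, stood at 1092 TPM in si-NC. Of the 16 further markers of smooth muscle cells and pericytes, none was at 0 in all libraries, and their sum was 1500 to 1875 TPM in si-NC and 1708 to 1839 in the libraries labelled si-GPD1L. In RNA from a whole culture, fewer cells of a type and less RNA per cell cannot be told apart, and the part of smooth muscle cells or myocytes in the levels below was not tested.

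Acta2 and Tagln were among the most abundant genes of the culture, and none of the 10 contractile genes passed the test between the groups. Acta2 ranked 16th and Tagln 18th of all genes by mean TPM over the 6 libraries. In normalized counts, all 10 genes had a lower mean in si-GPD1L than in the other group, at 78.9% to 98.96% of the si-NC mean. In TPM, 9 of the 10 had a lower mean and Cnn1 a higher one, 139.8 in si-NC and 147 in si-GPD1L. The adjusted p-value was under 0.05 for 0 of the 10 genes, and 6.36% of all 14852 genes tested were called at that threshold, 4.03% higher and 2.33% lower (edgeR's quasi-likelihood test).

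The levels per length differed widely within the set. TPM values of a library share a fixed sum, of which the non-coding gene Rn7sl1 took 1.52% in si-NC replicate 3 and at most 0.183% in the other libraries. In si-NC the mean TPM was 4550 ± 92.8 for Acta2 and 3929 ± 287 for Tagln (SD, n = 3). The next genes were Tpm2 at 1025 ± 37.5, Myl9 at 987 ± 41.02 and Tpm1 at 646 ± 12.6. These 5 genes made up the abundant part of the set. The TPM of Tpm1 rests on a gene length of 3316 bases, whereas its longest transcript has 1730 bases. Its place in this order therefore depends on the length used. In normalized counts, not scaled by length, the si-NC mean was 16766 for Tpm1 and 14750 for Tpm2. Cnn1 followed at 139.8 ± 0.710, then Actg2 at 48.7 ± 2.06, Lmod1 at 34.3 ± 0.549 and Myh11 at 24.6 ± 3.84. Myocd was the lowest at 1.50 ± 0.461 TPM. Neighbours in this order did not overlap between any si-NC libraries, except Tpm2 (982 to 1048 TPM) and Myl9 (940.04 to 1015 TPM). In the libraries labelled si-GPD1L these 2 genes stood in the opposite order, with 879 to 936 TPM for Tpm2 and 939 to 979 TPM for Myl9.

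**Figure D1:**
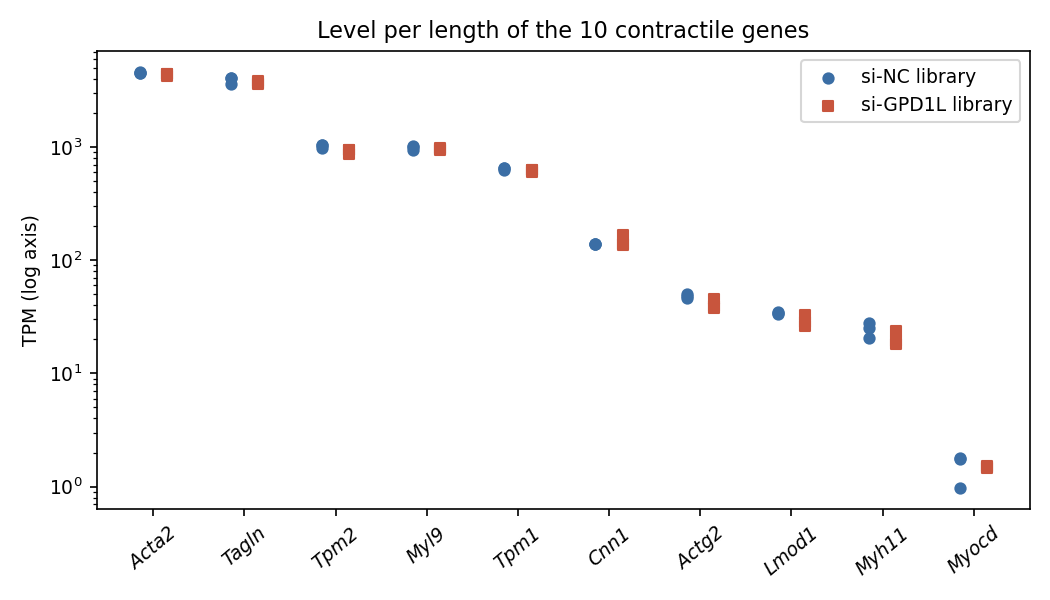
Level of each of the 10 contractile genes in TPM (log axis) in each library, with the 3 si-NC libraries as blue circles and the 3 libraries labelled si-GPD1L as red squares. Acta2 and Tagln stand between 3598 and 4657 TPM and Myocd between 0.966 and 1.78 TPM, and the groups differ far less than the genes do.

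Acta2 (NCBI gene 81633, chromosome 1 from 252537614 to 252550394, minus strand, in the positions of the deposited table) encodes alpha-smooth muscle actin, the thin-filament actin that marks myofibroblasts. Its normalized counts were 51815, 49799.9 and 47358 in si-NC replicates 1, 2 and 3 and 46068, 43602 and 45119 in those labelled si-GPD1L 1, 2 and 3. The highest of the latter lay below the lowest si-NC library, so the groups did not overlap. The mean was 49658 ± 2232 in si-NC and 44929 ± 1244 in si-GPD1L (SD, n = 3), a log2 fold change of -0.14 (SE 0.076, edgeR's quasi-likelihood test, adjusted p = 0.290). Its 95% confidence interval, as a percentage of si-NC, runs from 80.6% to 101.5%. These counts gave, by an exact permutation test, a two-sided p = 0.10, the lowest that such a test can reach with 3 libraries in each group. Every gene without overlap gets this value, so it repeats the lack of overlap and adds nothing to it. Per length, Acta2 supplied 29.4%, 30.9% and 30.8% of the summed TPM of 6 actin genes (Acta1, Acta2, Actb, Actc1, Actg1 and Actg2, a sum chosen after the values were seen) in si-NC. The same share was 28.3%, 27.96% and 29.1% in the si-GPD1L libraries, without overlap.

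Actg2 (NCBI gene 25365, chromosome 4 from 115215160 to 115239746, minus strand) encodes gamma-smooth muscle actin, the enteric form, whose sequence is nearly the same as that of Acta2. Reads from the actin genes could be split between them by the counting, so the count of the rarer gene is uncertain. Actg2 had 563, 479 and 495 normalized counts in si-NC and 395, 371 and 450 in the si-GPD1L libraries. Every si-GPD1L library was again below every si-NC library. The log2 fold change was -0.34 (SE 0.10, edgeR's quasi-likelihood test, adjusted p = 0.0710), with an interval from 67.7% to 92.3% of si-NC. Relative to Acta2 in the same library, Actg2 stood at 1.13%, 1.00% and 1.09% of its TPM in si-NC and at 0.890%, 0.883% and 1.04% in si-GPD1L, and these ranges overlapped.

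Myh11 (NCBI gene 24582, chromosome 10 from 764421 to 859184, plus strand) encodes smooth muscle myosin heavy chain, the most restricted of the smooth muscle markers. Its normalized counts were 1133, 1311 and 1417 in si-NC and 916, 948 and 1184 in si-GPD1L. The library labelled si-GPD1L 3 was above si-NC replicate 1, so the groups overlapped. The log2 fold change was -0.34 (SE 0.11, adjusted p = 0.0813), the largest in size of the 10, and the interval ran from 67.1% to 92.9% of si-NC. Without the library labelled si-GPD1L 3 the log2 fold change was -0.47 (adjusted p = 0.0367), and without si-NC replicate 1 it was -0.43 (adjusted p = 0.00237), both from edgeR's quasi-likelihood test and both past the threshold. With any other single library left out, Myh11 did not pass, at adjusted p-values of 0.157 to 0.316 in the same test. On the same strand, a second gene model, LOC103693254, spans all 94764 bases of Myh11 and received 14 to 34 counts per library, so that reads of Myh11 may have been split or set aside.

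Myl9 (NCBI gene 296313, chromosome 3 from 152857573 to 152863961, plus strand) encodes the regulatory light chain of smooth muscle myosin, the subunit that is phosphorylated to start contraction. Its normalized counts ran from 8201 to 9695 in si-NC and from 7971 to 8401 in si-GPD1L, and the ranges overlapped. It had a log2 fold change of -0.13 (SE 0.079, edgeR's quasi-likelihood test, adjusted p = 0.378). The interval covers 81.4% to 103.3% of the si-NC level. Without si-NC replicate 1 the log2 fold change was -0.064.

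The tropomyosin genes encode the coiled coils that run along the actin filament. Tpm2 (NCBI gene 500450, chromosome 5 from 59016616 to 59025971, minus strand) had 15905, 14732 and 13613 normalized counts in si-NC and 12767, 11851 and 12652 in si-GPD1L. All si-GPD1L libraries were below all si-NC libraries. Its log2 fold change was -0.25 (SE 0.080, edgeR's quasi-likelihood test, adjusted p = 0.0897), with an interval from 74.6% to 95.1% of si-NC. Without si-NC replicate 1 it was -0.19 with an adjusted p of 0.0319, and without si-NC replicate 3 it was -0.30 with an adjusted p of 0.0354, on the other side of the threshold in the same test. Leaving out any other single library gave Tpm2 adjusted p-values of 0.183 to 0.358 in that test, none past the threshold. Tpm1 (NCBI gene 24851, chromosome 8 from 72814737 to 72841496, minus strand) ran from 15808 to 17820.1 normalized counts in si-NC and from 14747 to 15506 in si-GPD1L, also without overlap. Its log2 fold change was -0.14 (SE 0.076, edgeR's quasi-likelihood test, adjusted p = 0.306). The ratio of Tpm2 to Tpm1 in TPM was 1.61, 1.60 and 1.55 in si-NC and 1.49, 1.45 and 1.48 in si-GPD1L, without overlap. The size of this ratio depends on the gene lengths used, and the difference between the 2 genes' fold changes was not tested. Both tropomyosins are also made by cardiac myocytes.

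Of the genes that bind the filament, Tagln (NCBI gene 25123, chromosome 8 from 50222895 to 50228369, minus strand) encodes transgelin (SM22), an early smooth muscle and myofibroblast marker. It had 35698, 32868 and 28539 normalized counts in si-NC and 30091, 28215 and 28145 in si-GPD1L, where the library labelled si-GPD1L 1 lay above si-NC replicate 3. The log2 fold change was -0.17 (SE 0.091, edgeR's quasi-likelihood test, adjusted p = 0.301). With si-NC replicate 1 left out it came to -0.092, and with replicate 3 left out to -0.25. Lmod1 (NCBI gene 304816, chromosome 13 from 52147099 to 52189835, plus strand) encodes leiomodin, which nucleates actin filaments in smooth muscle. Its normalized counts were 1285, 1221 and 1166 in si-NC and 898, 949 and 1106 in si-GPD1L, without overlap. This gene had the smallest adjusted p-value of the set, 0.0511, at a log2 fold change of -0.31 (SE 0.086, edgeR's quasi-likelihood test, interval 70.6% to 91.6% of si-NC). Lmod1 was under the threshold in 9 of 14 alternative analyses, with adjusted p-values from 0.00782 to 0.231, the highest without the library labelled si-GPD1L 2. Those that left out si-NC replicate 1 (adjusted p = 0.0246), si-NC replicate 3 (adjusted p = 0.0396) or the library labelled si-GPD1L 3 (adjusted p = 0.0284) were among the 9, all from edgeR's quasi-likelihood test.

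Cnn1 (NCBI gene 65204, chromosome 8 from 23113083 to 23121748, plus strand) encodes calponin 1, an inhibitor of myosin ATPase activity and a marker of differentiated smooth muscle. Its normalized counts were 1682, 1547 and 1537 in si-NC and 1788, 1445 and 1483 in si-GPD1L, so the highest and the lowest library both came from the group labelled si-GPD1L. Its fitted log2 fold change was -0.016 (SE 0.088, edgeR's quasi-likelihood test, adjusted p = 0.940), within an interval from 86.6% to 112.9% of si-NC. Its sign turned positive without si-NC replicate 1 and without the library labelled si-GPD1L 2 or 3.

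Myocd (NCBI gene 246297, chromosome 10 from 51682053 to 51781458, minus strand) encodes myocardin, the SRF coactivator of smooth and cardiac muscle. It was the only regulator in the set and the one with the fewest reads, 102 to 174 raw counts per library. Its normalized counts were 100.9, 169 and 169.8 in si-NC and 137, 139 and 142 in si-GPD1L, so the libraries of si-GPD1L fell inside the si-NC range. Its fitted log2 fold change was -0.072 (SE 0.18, edgeR's quasi-likelihood test, adjusted p = 0.860). The interval from 72.2% to 125.4% of si-NC is the widest of the set and holds the value fitted for Lmod1. Without si-NC replicate 2 or 3 the sign turned positive.

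**Figure D2:**
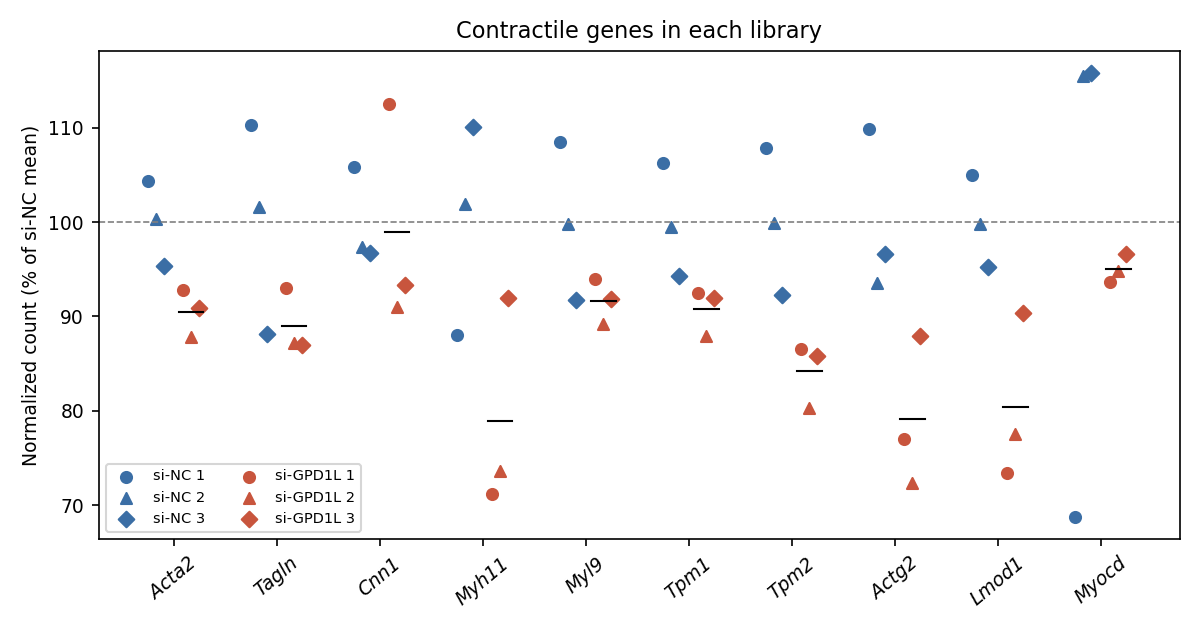
Normalized count of each contractile gene in each library as a percentage of the mean of the 3 si-NC libraries (dashed line at 100), with si-NC in blue, the libraries labelled si-GPD1L in red, replicate numbers by marker shape, and a black bar at the si-GPD1L mean. Acta2, Tpm1, Tpm2, Actg2 and Lmod1 show all red points below all blue points, and the si-GPD1L mean of Cnn1 stands at 98.96%.

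Over the set, 5 of the 10 genes had groups that did not overlap, all lower in si-GPD1L, while 29% of all genes tested did not overlap, 13.9% lower and 15.1% higher. The log2 fold change was below 0 for all 10, and for 50.9% of all genes tested. The members were read in the same 6 libraries and moved together in part, so these are not counts of independent genes. Acta2 correlated with the other members at Pearson's r of 0.448 (Cnn1) to 0.997 (Tpm2) in log2 CPM, except Myocd at -0.316. An unadjusted p-value under 0.05 was found for 4 of the 10 (Lmod1, Actg2, Myh11 and Tpm2), and for 22.4% of all genes. The median log2 fold change of the set was -0.16, and that of all genes tested was -0.0049. As log2 ratios of mean TPM, the median was -0.070 for the set and 0.078 for all genes tested, so the set lay 0.15 below all genes on either scale. TPM rescales the same counts by gene length and a factor per library. The match between the scales is therefore built in and is not separate evidence. No member had a log2 fold change beyond 1 in size, the second threshold of the study, which 1.62% of genes passed together with the first and 0.135% in the lower direction. With other tools on the same counts, DESeq2's Wald test called 3 of the 10 lower (Lmod1, Tpm2 and Myh11), beside 7.91% of all genes. edgeR's exact test called 3 (Lmod1, Actg2 and Myh11), beside 10.3% of all genes.

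**Figure D3:**
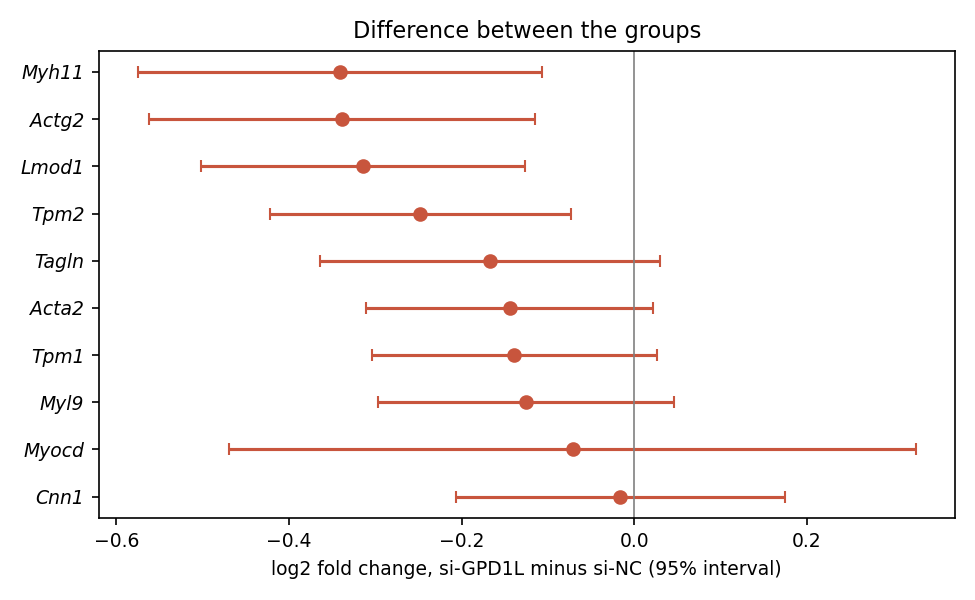
Fitted log2 fold change of each contractile gene, si-GPD1L minus si-NC, with its 95% confidence interval from edgeR's quasi-likelihood fit. All 10 points lie left of 0, from -0.34 for Myh11 to -0.016 for Cnn1, and the intervals of 6 genes include 0.

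**Figure D4:**
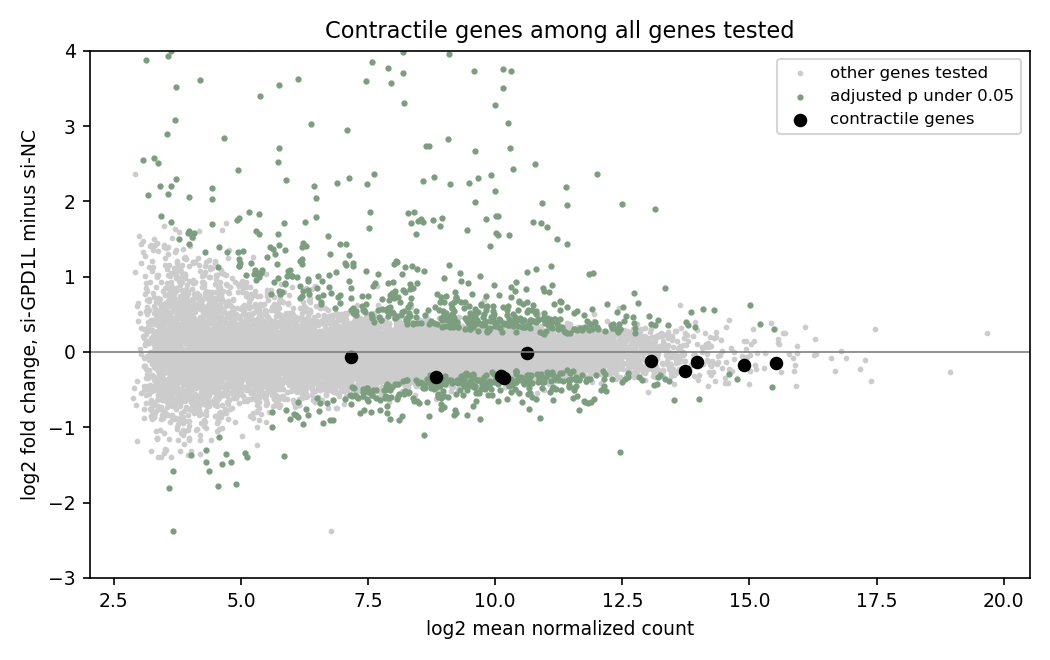
Log2 fold change against the log2 of the mean normalized count for all 14852 genes tested, with genes called at an adjusted p under 0.05 in green and the contractile genes in black. None of the contractile genes was called, and 43 genes outside the vertical range of -3 to 4 are not drawn.

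The libraries did not hold equal shares. si-NC replicate 1 held the highest normalized count of 7 of the 10 genes, and the library labelled si-GPD1L 2 held the lowest of 6. In 7 genes, Acta2, Tagln, Cnn1, Myl9, Tpm1, Tpm2 and Lmod1, the 3 si-NC libraries ranked alike, with replicate 1 highest and replicate 3 lowest. Myocd went the other way, with its lowest library in si-NC replicate 1. Within si-NC so did Myh11, at 1133, 1311 and 1417 normalized counts in replicates 1, 2 and 3. The 10 genes together took 0.745%, 0.691% and 0.641% of all counts in si-NC and 0.635%, 0.602% and 0.615% in si-GPD1L. si-NC replicate 1 is also the library with the highest mitochondrial share, and the part of that in the levels was not tested. Without it, the median log2 fold change of the set was -0.15 and 3 members were called lower, Myh11, Tpm2 and Lmod1, when 10.1% of all genes were called.

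Genes outside the set that followed Acta2 most closely were taken by Pearson's r of log2 CPM over the 6 libraries, among the 11873 genes whose mean normalized count was 50 or more. The nearest 5 were Snrnp25 (r = 0.998), LOC103693075, Rbmx, LOC100911391 and Clcc1 (r = 0.991). All these genes were read in the same 6 libraries, so the list is a description and was not tested. Rbmx, an RNA-binding protein gene, stood at 1134 ± 135 normalized counts in si-NC and 909 ± 54.6 in si-GPD1L (SD, n = 3). Its adjusted p-value of 0.0603 (edgeR's quasi-likelihood test) missed the threshold, and that of Acta2 was 0.290 in the same test.

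The deposited transcript table splits the 10 genes into 44 transcripts, 20 of them of Tpm1, whose exons are spliced in many combinations. The transcript totals exceed the gene totals, so a read can be counted for several transcripts of a gene, and they are not independent of each other. All 44 had a log2 fold change below 0, from -0.42 to -0.036. An adjusted p-value under 0.05 was found for 2 of the 44, where 5.89% of all 37822 transcripts tested were called (edgeR's quasi-likelihood test). The first was the Actg2 transcript NM_012893.1, with 513, 424 and 426 normalized counts in si-NC and 334, 316 and 371 in si-GPD1L (log2 fold change -0.42, SE 0.11, adjusted p = 0.0376). The longer Actg2 model, XM_006236728.2, had a log2 fold change of -0.36 and an adjusted p of 0.0637 in the same test. The second called transcript was XM_008769562.2 of Lmod1 (log2 fold change -0.34, SE 0.088, adjusted p = 0.0442), whose partner NM_001107179.1 stood at -0.33 with an adjusted p of 0.0519. The 6 Myh11 transcripts lay between -0.37 and -0.36, and the 20 Tpm1 transcripts between -0.19 and -0.073. No isoform of these genes went against the others of its gene in direction.

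The regulators and partners of the apparatus were followed through 4 lists, and 12 of their 106 genes tested were called (11.3%, beside 6.36% of all genes), 7 higher and 5 lower. Among 28 SRF and MRTF regulators, all tested, 1 was called higher and 2 lower, with a list median of -0.046. Srf stood at -0.095 (adjusted p = 0.499), and the MRTF genes Mkl1 and Mkl2 at 0.090 (adjusted p = 0.568) and 0.25 (adjusted p = 0.328), none of them called (edgeR's quasi-likelihood test). Klf4, a transcription factor, rose, in normalized counts, from 1551 ± 28.8 to 2038 ± 139.9 (log2 fold change 0.39, adjusted p = 0.00615 by the quasi-likelihood test of edgeR), and was called in all 14 alternatives. Fhl1, a LIM-domain gene of muscle, fell from 5607 ± 93.9 to 4389 ± 549 normalized counts (log2 fold change -0.35, adjusted p = 0.0356, edgeR), and was called in 11 of 14. Foxo4, a forkhead factor, fell by 0.32 on the log2 scale (adjusted p = 0.0484, edgeR), and was called in 8 of 14, 1 of them with a library left out. Klf5, at a log2 fold change of -0.53, did not pass (adjusted p = 0.0624, edgeR).

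Of 30 genes of myosin light chain kinase, phosphatase and RhoA/ROCK signaling, which set how far the myosin light chain is phosphorylated, 29 were tested, 2 were called higher and 1 lower, with a median of 0.0047. Ppp1r14c, an inhibitor of protein phosphatase 1, rose, in normalized counts, from 229 ± 15.5 to 410.3 ± 19.7 (log2 fold change 0.84, adjusted p = 0.000169 by the quasi-likelihood test of edgeR, called in all 14 alternatives). Rhob, a small GTPase, rose by 0.29 on the log2 scale (adjusted p = 0.0441, edgeR), and Cfl2, the muscle cofilin that severs actin filaments, fell by 0.35 (adjusted p = 0.0493, edgeR). Rhob was called in 7 and Cfl2 in 8 of the 14 alternatives, with adjusted p-values of 0.0554 for Rhob with upper-quartile factors, 0.0548 for Rhob with the replicate block and 0.0529 for Cfl2 with library size alone (edgeR).

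Of 37 cytoskeletal partners, from non-muscle actin and myosin to alpha-actinin, vinculin and filamin, 33 were tested. By edgeR's quasi-likelihood test 1 was called higher and 0 lower, 3.03% of the list beside 6.36% of all genes. An unadjusted p under 0.05 was found for 11 of the 33, and for 22.4% of all genes, in the same test. DESeq2's Wald test called 5 of the 33, beside 7.91% of all genes, and edgeR's exact test 4, beside 10.3%. Lima1, which bundles actin filaments, rose, in normalized counts, from 3630 ± 251 to 4549 ± 162 (log2 fold change 0.33, adjusted p = 0.0236, edgeR), and was called in 10 of 14 alternatives. The median of this list was 0.082, beside -0.16 for the contractile genes.

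All 16 further smooth muscle and pericyte markers were tested, of which 3 were called higher and 2 lower, 31.2% of the list, with a median of -0.069. The higher ones were Cspg4, the pericyte proteoglycan NG2, which rose, in normalized counts, from 974 ± 199 to 1699 ± 57.9 (log2 fold change 0.80, adjusted p = 0.00130 by the quasi-likelihood test of edgeR), Aoc3 (0.44, adjusted p = 0.0251) and Mcam (0.27, adjusted p = 0.0477). The lower ones were Des, the intermediate filament gene desmin (-0.35, adjusted p = 0.0282), and Pln, the regulator of the calcium pump of the sarcoplasmic reticulum (-0.44, adjusted p = 0.0337), both by the same test. Of the 14 alternatives, Cspg4 was called in all, Des and Pln in 11 each, Aoc3 in 10 and Mcam in 6. Mcam lost its call with upper-quartile factors, library size alone, the replicate block and 5 of the 6 left-out libraries. Des and Pln are also genes of cardiac myocytes. The part of other cell types, endothelial cells among them, in the 3 higher genes was not tested. Smtn, smoothelin, stood at 0.013 (adjusted p = 0.940, edgeR).

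Markers of other cell types stood as follows beside these results. None of the 12 cardiomyocyte markers was called, beside 6.36% of all genes, and the median was -0.11 (edgeR's quasi-likelihood test). An unadjusted p under 0.05 was found for 4 of the 12, and for 22.4% of all genes, in the same test. DESeq2's Wald test and edgeR's exact test called 0 of them as well, beside 7.91% and 10.3% of all genes. Of the endothelial markers, 11 were tested, 4 were called higher and 0 lower, beside 4.03% and 2.33% of all genes. Their median log2 fold change was 0.56. Their sum was 386 to 507 TPM over the si-NC libraries and 566 to 578 in si-GPD1L. Of the 16 macrophage markers 0 were called and 1 had an unadjusted p under 0.05, beside 6.36% and 22.4% of all genes (edgeR's quasi-likelihood test). The Wald test called 0 and the exact test 1 of these. Among the 11 fibroblast markers the called genes were Lum and Dcn, both lower, 18.2% of the list beside 6.36% of all genes. Their part in the levels of the contractile genes was not tested.

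The 12 calls in the 4 related lists became 3 without the library labelled si-GPD1L 1 or without si-GPD1L 2, 5 without si-GPD1L 3 or without si-NC replicate 2, and 28 without si-NC replicate 1. Klf4, Ppp1r14c and Cspg4 were called in each of these fits.

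**Figure D5:**
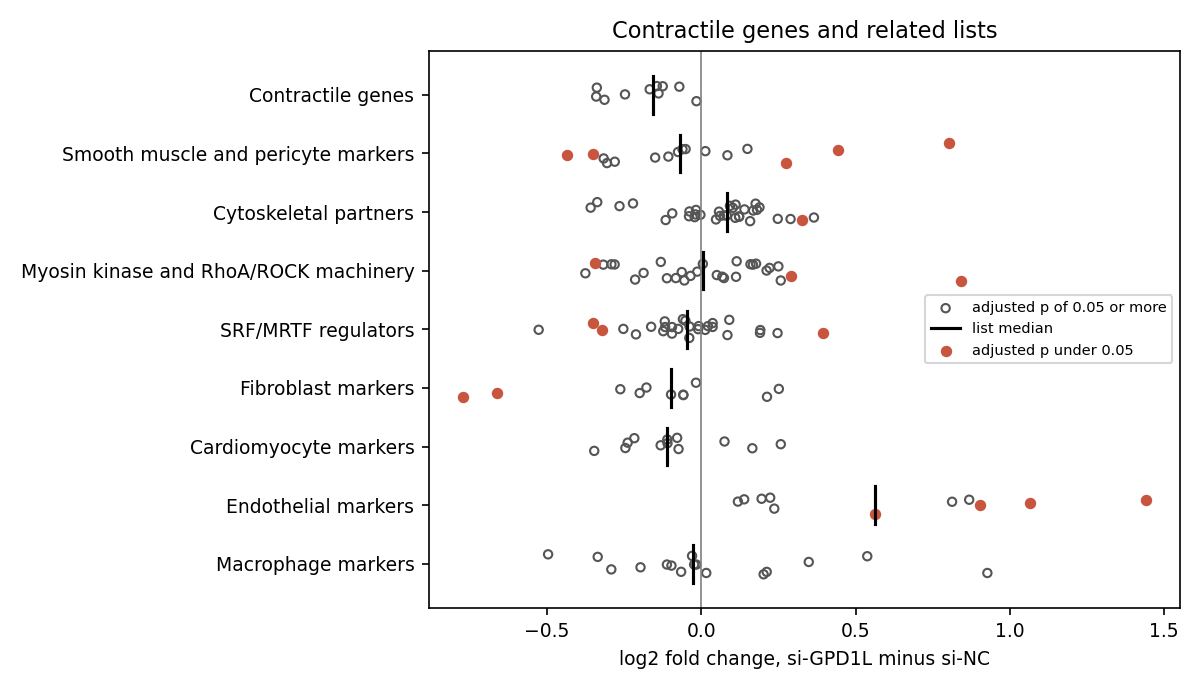
Log2 fold change, si-GPD1L minus si-NC, of each gene tested in the contractile set, 4 related lists and 4 cell type marker lists, with filled red points for an adjusted p under 0.05, open points otherwise, and a black bar at the list median. The contractile genes stand at -0.34 to -0.016 with no filled point, while the smooth muscle and pericyte markers spread from -0.44 to 0.80 with 5 filled points.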

How the data were processed

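RNA-Seq counts of 6 libraries were analysed, 3 of si-NC and 3 of si-GPD1L, grouped and numbered from the sample titles. The authors deposited raw read counts and TPM values per gene and per transcript. The submitters' processing notes name bcl2fastq, HISAT2 2.1.0, HTSeq 0.12.4 and the build rn6, without roles, and the strand setting is not given in the sources used here. The deposited TPM values were used as levels per length and were not tested. The deposited tables of the authors' own comparison (fold changes, p-values, q-values, and 12 columns of adjusted values per library) and of KEGG and GO terms were not used.

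Genes were filtered by filterByExpr (14852 remained), scaled by TMM and tested by the quasi-likelihood F test in edgeR 4.0.16 (R 4.3.3), with Benjamini-Hochberg adjustment over all genes. Genes were called at an adjusted p under 0.05. The standard error was the size of the log2 fold change divided by the root of F. The common biological coefficient of variation was 0.0894. Alternatives were DESeq2 1.42.0 (Wald test, size factors), upper-quartile factors, library size alone, edgeR's exact test, 2 other filters, the replicate number as a block, and each library left out. The steps were tested on simulated data whose changes were larger than those of the 10 members, so that check does not cover changes of their size. Named genes were the 10 members, Gpd1l, up to 4 genes with the smallest p per related list, the 5 genes nearest to Acta2 and up to 2 abundant genes per marker list. Smtn, Mcam, Lum, Dcn, Srf, Mkl1 and Mkl2 were named after their values were seen. The members and lists were chosen with earlier results of these data known. Transcript totals were 40992579 to 49099497 per library, above the gene totals, and a transcript's count shares reads with its neighbours. Figures were drawn with matplotlib 3.10.9.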

Additional observations from a re-analysis of the deposited data

How the results depend on the processing

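The median log2 fold change of the contractile genes was below 0 in all 14 alternatives on gene counts and over transcripts. As a log2 ratio of deposited mean TPM, an alternative chosen after seeing the data, it was -0.070, when all genes tested had a median of 0.078 on that scale, and Cnn1 turned to 0.070. Of the 10 genes, 8 were below 0 in each of these 14, and 4 (Lmod1, Myh11, Tpm2 and Actg2) passed the threshold in at least 1. The number of members called, 0 as reported, was 1 with DESeq2's size factors, upper-quartile factors or library size alone, 3 with DESeq2's Wald test or edgeR's exact test, 4 without a filter beyond 1 count, and 0 to 3 with 1 library left out. The number of all genes called was 945, against 1528 with the exact test, 1929 without a filter, 240 with both thresholds and 361 to 1531 with 1 library left out. Calls in the 4 related lists, 12 as reported, were 19 with the Wald test, 19 with the exact test, 24 without a filter and 3 to 28 with 1 library left out. Left-out libraries moved Cnn1 between -0.12 and 0.040 and Myocd between -0.28 and 0.050 on the log2 scale, and turned their sign. The causes were not tested. The replicate numbers are not stated to mark a shared culture, and the correlations of same-numbered libraries (-0.012, -0.0059 and 0.043) did not pair them, with 2 of 6 libraries correlating best with their own number. With the replicate number as a block, 1 member, Myh11, was called. Myocd, at 102 to 174 counts per library, had a coefficient of variation of 27.1% in si-NC.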
